A study of Mus musculus with 11 samples.

Results

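Collagens, laminins and other structural glycoproteins of the extracellular matrix were followed in the forebrain of mice whose excitatory neurons lose Dicer, the RNase that cuts miRNA precursors into mature miRNAs. The members were all protein-coding genes of the count table with a collagen, laminin or latent TGF-beta binding protein symbol, together with Sparc, Eln, Fbn1, Fbn2, Fn1, Nid1 and Nid2. They numbered 66 of 39017 genes, and none had 0 reads in all libraries. By role they comprised 11 fibrillar collagens, 21 basement membrane genes, 9 fibril-associated collagens, 12 network, beaded-filament and anchoring collagens, 4 transmembrane collagens, 7 elastic fibre and microfibril genes and 2 adhesive or matricellular genes.

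The knockout (KO) mice carried Camk2a-Cre and 2 floxed Dicer alleles (Camk2a-Cre;Dicer flox/flox). The Camk2a promoter drives Cre in forebrain excitatory neurons after birth, so glia, vessels and meninges keep Dicer. The labels name the other animals control and do not give their alleles. All mice were 13 to 14 weeks old. Polyadenylated RNA was sequenced from the neocortex of 3 KO males (D5130, D5132 and D5133) and 3 control males (D5129, D5134 and D5135). The hippocampal CA1 region gave 2 KO libraries (D5130 and D5133, male) and 3 control libraries (the males D5134 and D5135 and the female D5138). Each library is 1 animal, and 4 of the 7 animals gave both tissues.

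Fibrillar collagens form the cable-like fibres of the meninges and of the sheath around large vessels. Laminins, type IV collagens and nidogens assemble into basement membranes, thin sheets that in the brain lie under the endothelium and under the astrocyte endfeet. Elastin and the fibrillins build elastic fibres of arteries, and the latent TGF-beta binding proteins tether TGF-beta to these fibres. In the healthy brain much of this matrix is made by vascular cells, perivascular and meningeal fibroblasts and astrocytes, and a few collagens are made by neurons. The miR-29 family is known to bind the 3′ UTRs of many collagen, laminin and elastin transcripts.

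The miR-29 sequences are shown because the matrix genes are among its best known targets and because its maturation needs Dicer. The members miR-29a, miR-29b and miR-29c share the seed, bases 2 to 8, given in capitals. The sequences are from RefSeq, on GRCm38.p6. miR-29a lies on the minus strand at chr6:31062673-31062694, miR-29b on the minus strand at chr6:31063025-31063047 and again on the plus strand at chr1:195037091-195037113, and miR-29c on the plus strand at chr1:195037600-195037621.
mmu-miR-29a-3p: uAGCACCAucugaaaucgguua
mmu-miR-29b-3p: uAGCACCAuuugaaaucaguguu
mmu-miR-29c-3p: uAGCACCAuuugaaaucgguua

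The longest annotated 3′ UTR of each member was searched, on the transcript strand only, for the complement of the seed: the 8mer TGGTGCTA and the 7mers TGGTGCT and GGTGCTA, where a 7mer inside an 8mer was not counted again. An 8mer was found in 19 of 66 members (28.8%), against 2.81% of all 20466 protein-coding genes with a 3′ UTR. At least 1 match of either kind was found in 33 members (50%), against 16.1% of those genes, while the median 3′ UTR length was 1000 bases for members and 972 for all genes. A match is a description of the letters and does not show binding. The following stretches hold matches of fibrillar collagens, of elastin, of a laminin, of a type IV collagen and of Sparc, with the match in capitals and the transcript strand shown 5′ to 3′.
Col3a1: aaatgtctcaaTGGTGCTAtaataaataaa
Col1a1: gaaggaatttcTGGTGCTAtagaagctgag
Col1a2: tgcaacacaaaGGTGCTAattagtagtat
Col11a1: ttggatttcgtTGGTGCTgtagaaaacaa
Eln: ctcatcaacgtTGGTGCTActgcttggtgg
Lamc1: atctgacacacTGGTGCTAttaattatttg
Col4a5: gctcccaccaaTGGTGCTAatatcctctat
Sparc: cctggggataaGGTGCTAacatagattta
On GRCm38 these capitals lie at chr1:45348982-45348989 for Col3a1, chr11:94952538-94952545 for Col1a1, chr6:4541178-4541184 for Col1a2, chr3:114219083-114219089 for Col11a1 and chrX:141688253-141688260 for Col4a5, all on the plus strand. Those of Eln lie at chr5:134703736-134703743, those of Lamc1 at chr1:153220068-153220075 and those of Sparc at chr11:55395469-55395475, all on the minus strand. Col4a5 holds 3 such 8mers, of which the first is shown. The interval that the count table gives for Eln starts at 134703781, so this match lies outside it.

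Gene reads summed to 43144097 to 58329441 per neocortex library and to 24806581 to 35684618 per CA1 library. The members took 0.106% to 0.117% of the reads in every neocortex library. In the CA1 they took 0.15% and 0.149% in the KO libraries, against 0.106% to 0.118% in the control libraries. The kits differed, stranded for the neocortex and unstranded for the CA1, so levels are not compared across the tissues. The neocortex libraries were clustered on the relative shares of the ERCC spike-in RNAs. The cut gave a set of D5129, D5130 and D5132 and a set of D5133, D5134 and D5135, each with both genotypes. Such a cut gives separate sets for any data, and how far apart they lie was not measured. Dicer1, the targeted gene, stood at 73.3 and 71.6 CPM (per-million read counts) in CA1 KO libraries, against 68.7 to 75.2 CPM in CA1 control libraries, and at 59.0 to 63.3 CPM in neocortex KO libraries, against 59.3 to 66.5 CPM in neocortex control libraries. The groups overlapped, and since whole-gene counts include exons outside the floxed part and cells without Cre, they do not check the genotype labels. The control animal D5134 stood apart from the other males in both tissues, since its Y-linked genes held 69.5 CPM in the neocortex and 74.0 in the CA1, against 154 to 188. Xist, the RNA of the inactive X chromosome, held 21.1 CPM in the male KO library D5133 of the CA1, against 0.742 to 3.21 in the other male CA1 libraries and 602 in the female. Called members are also given below for fits without 1 library.

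Levels between genes were compared as CPM, here and below on TMM-scaled library sizes, per kilobase of annotated exons. These lengths are approximate, because only 27 of the 66 members have the same coordinates in the count table as in the annotation. Sparc, a secreted collagen-binding glycoprotein of astrocytes and vessels, led in both tissues, at 100 CPM per kilobase in CA1 KO libraries and 65.5 in CA1 control libraries. The type IV collagen chain Col4a2 came next in the CA1, at 17.0 in KO and 14.9 in control libraries, followed by Ltbp4 at 13.8 and 10.5 and by the beaded-filament collagen Col6a1 at 9.48 and 8.61. In the neocortex the order was Sparc, Col6a1, Col4a2, Ltbp4 and Col4a1 in KO and in control libraries alike. At the low end, Col4a3, Col4a4, Col10a1 and Col17a1 each stood under 0.05 CPM per kilobase in the CA1.

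In the CA1 region, 12 of 62 tested members rose in the KO, 1 fell and 49 did not pass (edgeR, adjusted p below 0.05 over 18274 genes). Of all genes tested there, 2.47% rose and 1.41% fell. The members that rose were the adhesive genes Fn1 and Sparc, the elastic fibre genes Eln, Ltbp2 and Ltbp4, the basement membrane genes Lama1, Lamb2, Lamc1 and Nid1, the fibril-associated collagens Col12a1 and Col16a1, and the fibrillar chain Col1a2. The fibrillar chain Col11a1 fell. The median log2 fold change was 0.29 over the tested members and -0.00 over all genes tested, and 49 of 62 members had a positive value. Both KO libraries lay above all 3 controls for 30 members, against 17.4% of all genes, and below them for 2 members, against 16.3% of all genes. Without the female control D5138 the count was 8, 7 higher and 1 lower, and it was 10 to 13 without any other single library. A CA1 fit without D5130 or D5133 leaves 1 KO library, so it holds no spread among KO animals. A total of 61 tested members passed the low-count filter through either genotype alone, and Col28a1 through its controls only. Col4a3, Col4a4, Col10a1 and Col17a1 did not pass this filter.

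**Figure D1:**
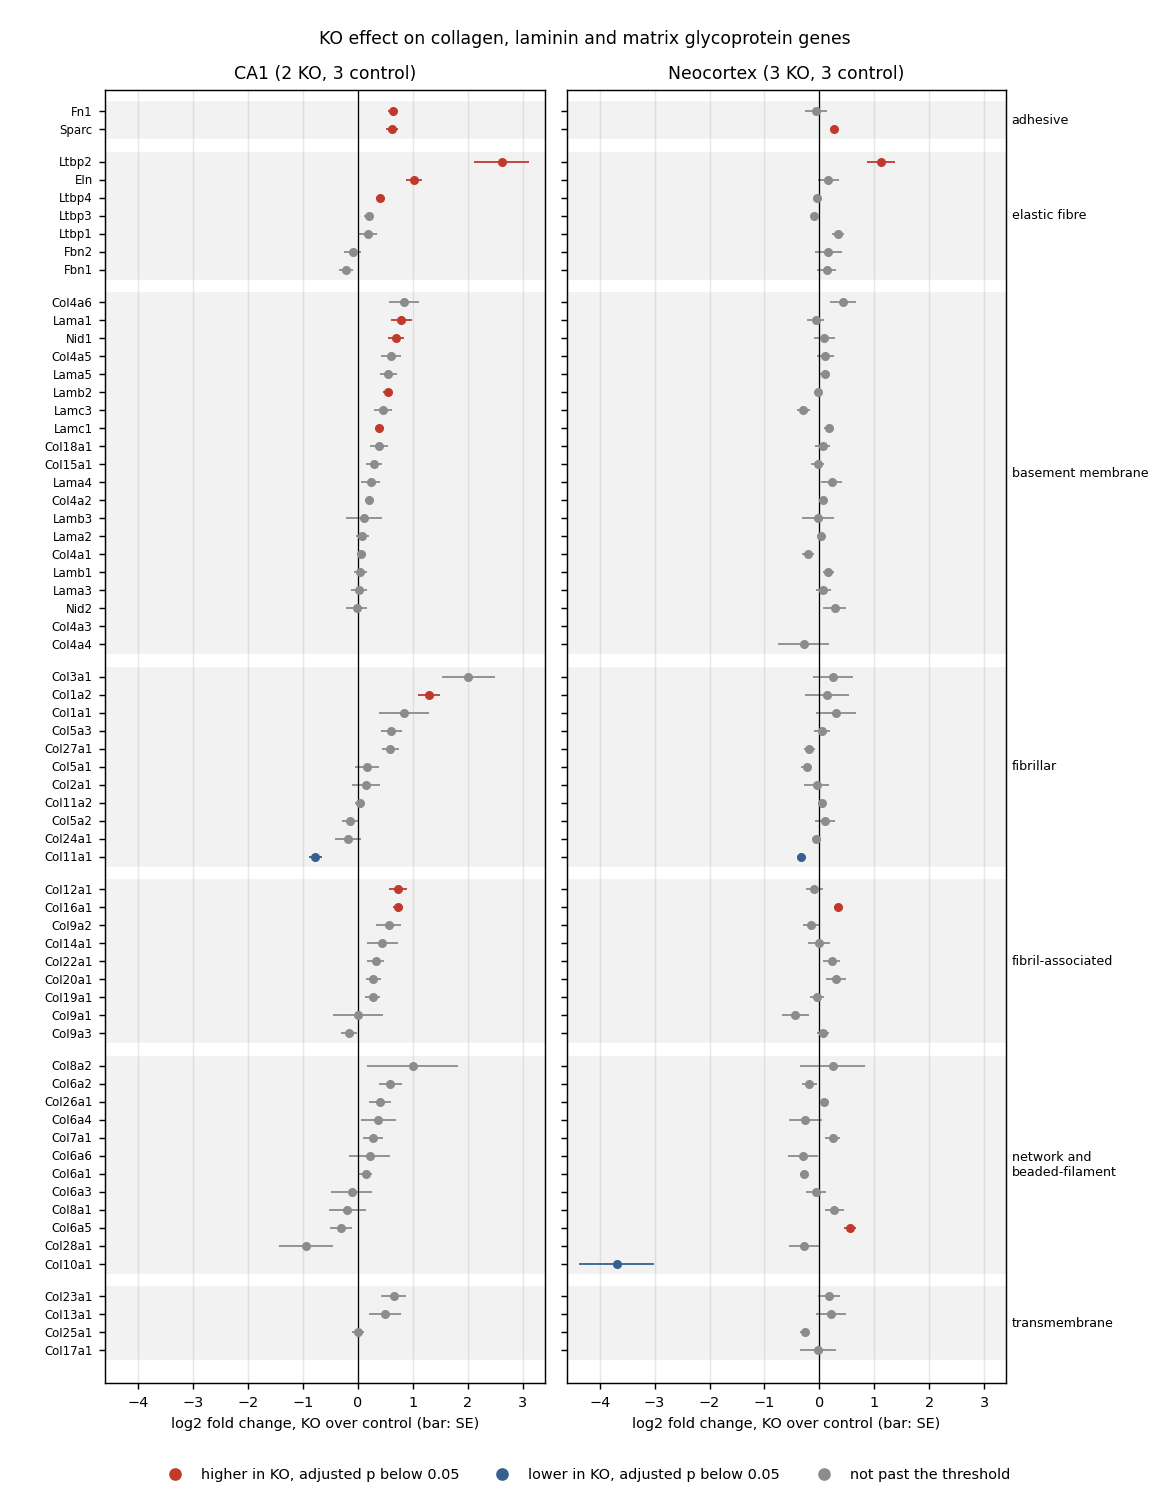
Log2 fold change of KO over control (horizontal axis) with its standard error for the members, 1 not drawn, CA1 left and neocortex right, arranged by role and within a role by the CA1 value. Red and blue points passed as higher and lower in the KO, grey points did not pass, and a name without a point was not tested; in the CA1 12 points are red and 1 is blue, and in the neocortex 4 are red and 2 are blue.

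Both adhesive genes rose in the CA1. Fibronectin (Fn1), which links cells through integrins to collagen, was counted at 90.6 and 109 CPM in KO libraries, against 63.5, 66.1 and 63.2 CPM in control libraries. The groups did not overlap and the controls lay close together. Its log2 fold change was 0.63 (edgeR, SE 0.078, adjusted p = 0.000682), and it passed without any 1 of the 5 libraries, at 0.49 to 0.76. Sparc stood at 377 and 383 CPM in KO libraries, against 279, 255 and 210 CPM in control libraries. Both KO libraries were above every control, among which D5138 was lowest. Sparc rose by 0.62 (edgeR, SE 0.10, adjusted p = 0.0171). Its edgeR adjusted p was 0.14 without D5130, 0.18 without D5133 and 0.0589 without D5135, with log2 values of 0.60 to 0.64.

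Of the 7 elastic fibre and microfibril genes tested in the CA1, 3 rose, against 2.47% of all genes tested, and 4 did not pass. Their median log2 fold change was 0.19. Elastin (Eln), the rubber-like core of the fibre, stood at 11.7 and 11.2 CPM in KO libraries, against 6.17, 5.76 and 5.06 CPM in control libraries. Its groups lay far apart for their spread. The log2 fold change was 1.02 (edgeR, SE 0.14, adjusted p = 0.00143), and it passed without any 1 of the 5 libraries, at 0.94 to 1.08. Ltbp4, which helps assemble elastin, stood at 92.1 and 86.7 CPM in KO libraries, against 70.7, 69.5 and 64.3 CPM in control libraries. No control reached either KO library, and the rise was 0.39 (edgeR, SE 0.069, adjusted p = 0.00654). Without D5138 it was 0.35 with an edgeR adjusted p of 0.0542.

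Ltbp2, a fibrillin-binding relative that does not bind latent TGF-beta, was the member with the largest log2 fold change in the CA1 but rested on few reads. It had 81 and 92 reads in KO libraries, against 2, 20 and 25 reads in control libraries, or 2.37 and 3.67 CPM against 0.0757, 0.607 and 0.711 CPM. Every KO value was above every control, and the controls differed widely among themselves. The log2 fold change was 2.62 (edgeR, SE 0.50, adjusted p = 0.0189). It was 2.91 without D5130, 2.28 without D5133 and 2.81 without D5135, with adjusted p-values of 0.0522, 0.135 and 0.0731 by edgeR. Exons of the antisense gene D030025P21Rik cover 9.34% of the exon bases of Ltbp2, and the unstranded CA1 reads cannot tell them apart. Ltbp3 at 0.19 (SE 0.087) and the fibrillin Fbn1 at -0.22 (SE 0.13) did not pass, with adjusted p-values of 0.274 and 0.425 by edgeR. The same limit holds for Fbn1, where exons of the antisense gene Gm9913 cover 20.1% of the exon bases.

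Among basement membrane genes in the CA1, 4 of 19 tested rose, against 2.47% of all genes tested, none fell and 15 did not pass. The laminin chains Lamb2, Lamc1 and Lama1 and the nidogen Nid1, which links laminin to type IV collagen, made up the 4. The median log2 fold change was 0.29 and 18 of the 19 had a positive value. Both KO libraries lay above all controls for 11, against 17.4% of all genes tested. The count was 2 without D5133 and 1, Lamb2, without D5138.

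Lamb2 encodes a laminin beta chain found in vessel walls, among other basement membranes. It stood at 40.4 and 42.1 CPM in KO libraries, against 28.9, 27.5 and 28.5 CPM in control libraries. Each genotype was tight and the groups were well apart, and its log2 fold change was 0.54 (edgeR, SE 0.080, adjusted p = 0.0021). It passed without any 1 of the 5 libraries, at 0.51 to 0.57. The gamma chain Lamc1, shared by most laminins, stood at 47.4 and 53.8 CPM in KO libraries, against 38.7, 39.3 and 38.1 CPM in control libraries. Its groups did not overlap, and it rose by 0.39 (edgeR, SE 0.079, adjusted p = 0.0154). Nid1 stood at 9.82 and 12.0 CPM in KO libraries, against 6.43, 7.13 and 6.68 CPM in control libraries, without overlap. Nid1 rose by 0.69 (edgeR, SE 0.14, adjusted p = 0.0151). Lamc1 and Nid1 lost their calls without D5133, at 0.29 and 0.53 with an edgeR adjusted p of 0.168 each, and without D5138, at 0.38 and 0.68 with adjusted p-values of 0.0903 and 0.0782 by edgeR.

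Lama1, an alpha chain made in the meninges, stood at 6.08 and 4.54 CPM in KO libraries, against 3.1, 2.97 and 3.18 CPM in control libraries. The 2 KO libraries differed from each other by about as much as the lower of them differed from the controls. Its log2 fold change was 0.79 (edgeR, SE 0.19, adjusted p = 0.03), and it passed in 1 of 5 fits without a library. The edgeR adjusted p was 0.287 without D5130, 0.0525 without D5134, 0.063 without D5135 and 0.109 without D5138, at 0.56 to 0.81. Neither of the abundant type IV collagen chains passed. Col4a1 stood at 65.2 and 60.6 CPM in KO libraries, against 59.0, 67.3 and 54.8 CPM in control libraries, which overlap. Its log2 fold change was 0.06 (edgeR, SE 0.086, adjusted p = 0.80). Col4a2 stood at 117 and 108 CPM in KO libraries, against 102, 103 and 90.2 CPM in control libraries, at 0.20 (edgeR, SE 0.074, adjusted p = 0.18).

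Fibrillar collagens gave 1 rise and 1 fall among 11 tested in the CA1, with 9 that did not pass and a median log2 fold change of 0.16. Of all genes tested there, 2.47% rose and 1.41% fell. Of the 11, 8 had a positive value. Both KO libraries lay above all controls for 5 and below them for 1, against 17.4% and 16.3% of all genes tested. Their summed level in KO libraries was 1.21 and 1.2 times the control mean, against 1.19 and 1.18 times for the basement membrane genes. Col1a2, a chain of type I collagen, stood at 28.2 and 19.8 CPM in KO libraries, against 7.49, 10.2 and 11.6 CPM in control libraries. Its KO libraries were uneven but both were above all controls, and it rose by 1.30 (edgeR, SE 0.19, adjusted p = 0.00844). Without D5135 its edgeR adjusted p was 0.0867 at 1.32. The partner chain Col1a1 stood at 16.3 and 20.2 CPM in KO libraries, against 6.74, 16 and 7.82 CPM in control libraries. D5135 was nearly as high as the lower KO library, and its log2 fold change of 0.84 (SE 0.45) did not pass, with an edgeR adjusted p of 0.479.

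Col3a1, the chain of type III collagen, had the largest log2 fold change that did not pass, at 2.01 (edgeR, SE 0.48, adjusted p = 0.126). It stood at 6.81 and 18.9 CPM in KO libraries, against 3.14, 3.31 and 3.01 CPM in control libraries. The controls were nearly equal and 1 KO library was far above the other. Without D5130 its log2 fold change was 2.59 and without D5133 it was 1.10, in fits that leave 1 KO library. With all libraries it passed by DESeq2, at 2.02 (adjusted p = 0.00679), and it did not pass by edgeR without any 1 of the controls. Col11a1 went the other way. This type XI chain stood at 13.9 and 13.1 CPM in KO libraries, against 22.3, 20.6 and 26.5 CPM in control libraries. The groups did not overlap, and it fell by 0.78 on the log2 scale (edgeR, SE 0.12, adjusted p = 0.00253), with a fall of 0.67 to 0.86 and a passing test without any 1 of the 5 libraries. Its type XI partner Col11a2 stood at 0.03 (edgeR, SE 0.091, adjusted p = 0.905), and Col5a2, the most abundant type V chain per kilobase in the CA1, at -0.15 (edgeR, SE 0.15, adjusted p = 0.703).

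Fibril-associated collagens bind the surface of collagen fibres. In the CA1 2 of 9 rose, against 2.47% of all genes tested, while 7 did not pass. Col16a1 stood at 34.8 and 33.4 CPM in KO libraries, against 19.9, 22.7 and 19.3 CPM in control libraries. The gap between the groups was several times the spread within each. It rose by 0.72 (edgeR, SE 0.094, adjusted p = 0.00093) and passed without any 1 of the 5 libraries, at 0.68 to 0.80. Col12a1 stood at 9.76 and 13.1 CPM in KO libraries, against 6.70, 8.01 and 5.94 CPM in control libraries, without overlap. It rose by 0.73 (edgeR, SE 0.17, adjusted p = 0.0259). Its edgeR adjusted p was 0.263 without D5133, 0.0513 without D5134 and 0.141 without D5138, at 0.50 to 0.71. Col19a1 and Col20a1, also abundant in the group, stood at 0.27 (SE 0.13) and 0.28 (SE 0.14) and did not pass, both with an edgeR adjusted p of 0.316.

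None of 11 network, beaded-filament and anchoring collagens and none of 3 transmembrane collagens passed in the CA1 by edgeR. At an unadjusted p below 0.05 there was 1 in each group, and DESeq2 called 0 of each. The type VI collagen chains Col6a1 and Col6a2, which form beaded filaments around vessels, stood at 0.14 (SE 0.12) and 0.59 (SE 0.20), with adjusted p-values of 0.611 and 0.166 by edgeR. Col6a5 stood at -0.31 (edgeR, SE 0.20, adjusted p = 0.49). The lowest value of the tested members was that of Col28a1, at -0.94 (edgeR, SE 0.49, adjusted p = 0.347). Col8a2 stood at 3.16 and 0.598 CPM in KO libraries, against 1.51, 1.09 and 0.37 CPM in control libraries. Its KO libraries lay on either side of the higher controls, and its log2 fold change was 0.99 (edgeR, SE 0.83, adjusted p = 0.639), but -0.70 without D5130 and 1.70 without D5133. Col25a1, a neuronal transmembrane collagen, stood at 70.1 and 72.9 CPM in KO libraries, against 64.6, 85.3 and 65.2 CPM in control libraries, which enclose both KO values, at -0.01 (edgeR, SE 0.11, adjusted p = 0.99). The other transmembrane chains stood at 0.65 (SE 0.23) for Col23a1 and 0.49 (SE 0.30) for Col13a1, with adjusted p-values of 0.155 and 0.435 by edgeR.

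**Figure D2:**
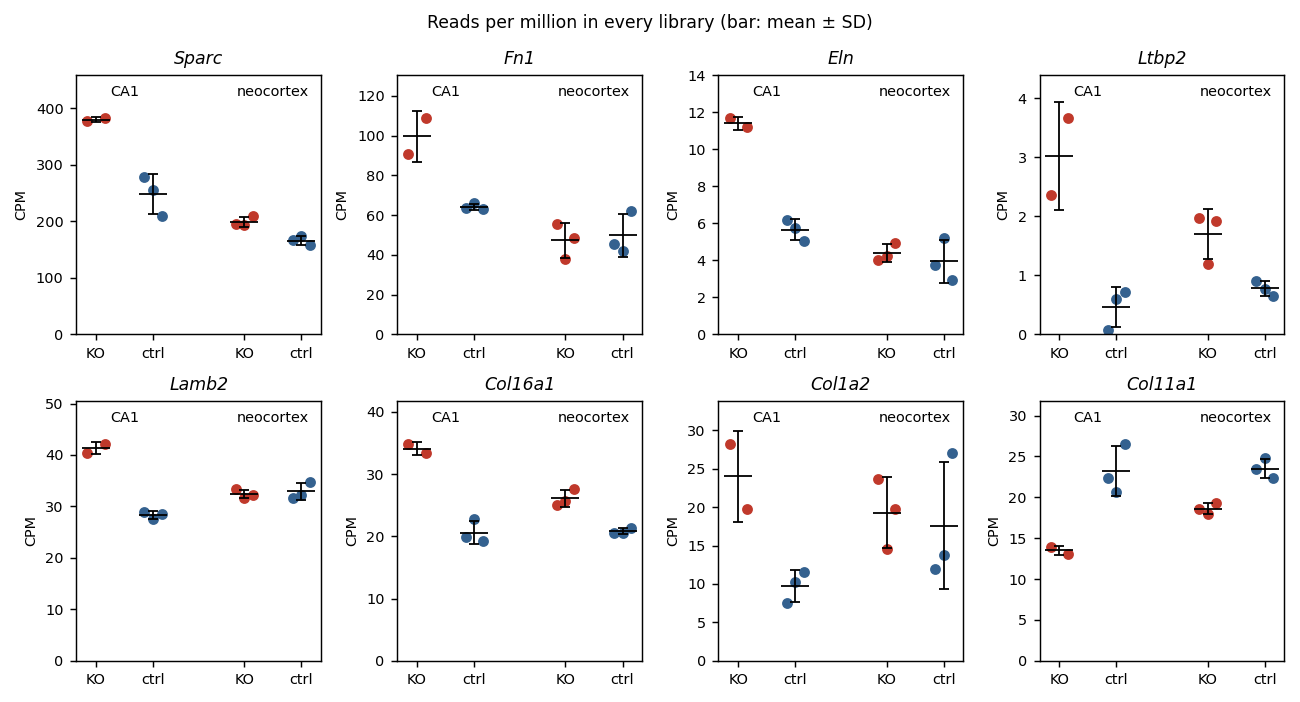
CPM in every library for 8 members, with KO in red left of control in blue for the CA1 and then the neocortex; black bars give the mean and SD, and the vertical axes start at 0. In the CA1 the KO points lie above the control points for 7 of the 8 genes and below them for Col11a1, and in the neocortex the groups stand apart for Sparc, Ltbp2, Col16a1 and Col11a1.

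Markers of cells that make matrix differed between the same CA1 libraries, where 2.47% of all genes tested rose and 1.41% fell. Of 14 markers of meningeal and perivascular fibroblasts, 6 rose (Igf2, Pcolce, Ogn, Crabp2, Slc22a6 and Aldh1a2), none fell and the median log2 fold change was 1.22. Their summed level was 267 CPM in D5130 and 213 CPM in D5133 of the KO, against 118, 101 and 124 CPM in control libraries. Of 12 pericyte and smooth muscle markers 4 rose, the contractile genes Acta2, Tagln and Myh11 and the pericyte gene Vtn. Their sum was 279 CPM in each KO library, against 197 to 218 CPM in control libraries. Of 12 endothelial markers 1 rose, Pecam1, and the sum was 279 to 295 CPM in KO libraries, against 251 to 306 CPM in control libraries. The choroid plexus markers summed to 26.7 to 28.8 CPM in KO libraries, against 27.0 to 34.2 CPM in control libraries, and 1 of 8 tested rose, Kcnj13. No gene of these 4 lists was at 0 in every CA1 library.

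Glial markers also differed in the CA1. Activated microglia markers rose in 8 of 10 cases, with sums of 138 and 161 CPM in KO libraries, against 66.9 to 83.9 CPM in control libraries. Astrocyte markers rose in 3 of 10 (Gfap, Vim and Aqp4), with sums of 2440 and 2660 CPM in KO libraries, against 1980 to 2050 CPM in control libraries. Of 8 excitatory neuron markers, 2 fell (Neurod6 and Wfs1), with sums of 4900 to 5320 CPM in KO libraries, against 5500 to 6120 CPM in control libraries. None of 5 oligodendrocyte precursor markers tested passed by edgeR, 3 had an unadjusted p below 0.05, and the sum was 160 to 162 CPM in KO libraries, against 169 to 191 CPM in control libraries. The part of these cell types in the rise of the matrix genes was not tested. In bulk RNA, fewer or more cells of a type and less or more RNA per cell cannot be told apart.

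**Figure D3:**
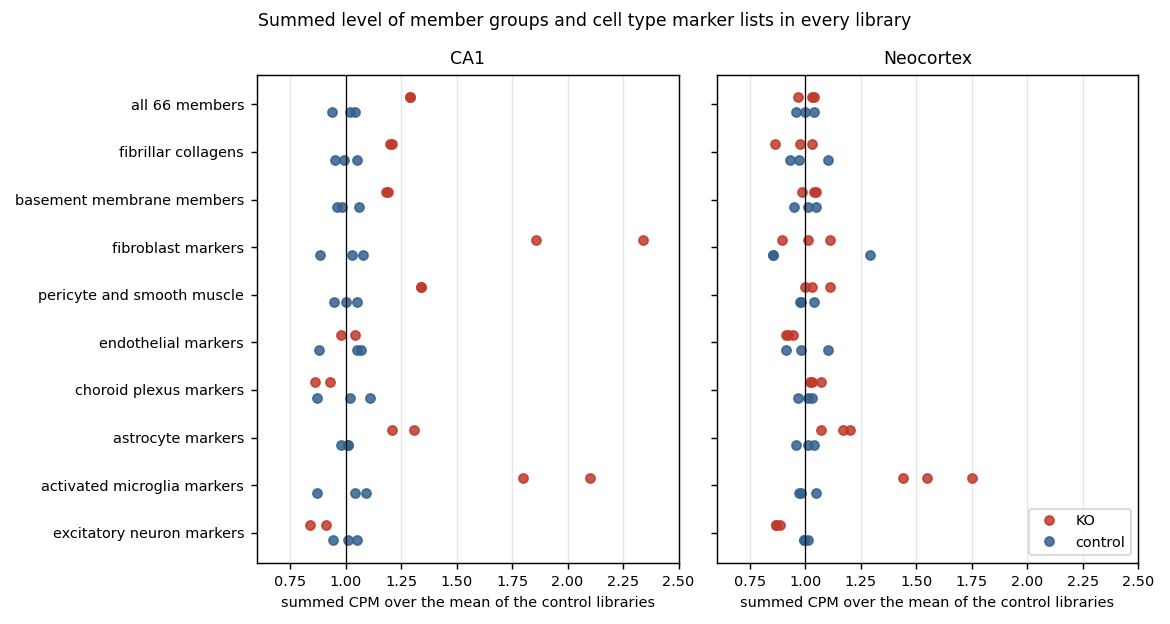
Summed CPM of members and of cell type marker lists in each library, divided by the mean of the control libraries of the same tissue (horizontal axis), with KO in red above control in blue. In the CA1 both KO libraries lie at 1.29 for all members, at 1.86 and 2.34 for fibroblast markers and at 0.979 and 1.04 for endothelial markers, and in the neocortex the members lie at 0.967 to 1.04 in KO and 0.958 to 1.04 in control libraries.

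In the neocortex 4 of 65 tested members rose, 2 fell and 59 did not pass by edgeR. Among all 16971 genes tested 1.51% rose and 1.2% fell. The 4 were Sparc, Ltbp2, Col16a1 and Col6a5, and the 2 were Col11a1 and Col10a1. Col10a1 was tested only because its controls passed the low-count filter, so its call is no support for a fall, and without it there was 1 fall. With a batch term for the spike-in sets, Sparc, Col16a1, Col6a5, Ltbp2 and Col11a1 lost their calls, with adjusted p-values of 0.0594, 0.0609, 0.0675, 0.0871 and 0.1 by edgeR, and Col10a1 was the member still called. The median log2 fold change was 0.06 over the members and 0.00 over all genes, and 36 of 65 members had a positive value. All KO libraries lay above all controls for 7 members, against 11.6% of all genes, and below them for 8, against 12.4% of all genes. A total of 63 tested members passed the low-count filter through either genotype alone, Col4a4 and Col10a1 through their controls only, and Col4a3 did not pass.

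Sparc stood at 195, 194 and 210 CPM in neocortex KO libraries, against 167, 174 and 159 CPM in control libraries. The groups did not overlap, and it rose by 0.26 (edgeR, SE 0.055, adjusted p = 0.0282). Col16a1 stood at 25, 25.7 and 27.6 CPM in KO libraries, against 20.5, 20.6 and 21.3 CPM in control libraries. The controls were nearly equal and all KO libraries lay above them, with a rise of 0.33 (edgeR, SE 0.072, adjusted p = 0.0328). Ltbp2 had 105, 61 and 112 reads in KO libraries, against 49, 33 and 31 reads in control libraries, or 1.97, 1.2 and 1.92 CPM against 0.913, 0.773 and 0.654 CPM. It was low in every library and higher in each KO library, by 1.12 (edgeR, SE 0.26, adjusted p = 0.0418). Col6a5, a type VI chain, stood at 11, 12.4 and 11.2 CPM in KO libraries, against 8.87, 7.42 and 7.25 CPM in control libraries, with all KO values above all controls. It rose by 0.55 (edgeR, SE 0.11, adjusted p = 0.0243).

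Col11a1 stood at 18.6, 18 and 19.3 CPM in neocortex KO libraries, against 23.4, 24.8 and 22.4 CPM in control libraries. All KO libraries lay below all controls, as in the CA1, and it fell by 0.34 on the log2 scale (edgeR, SE 0.075, adjusted p = 0.0366), but stood at 0.70 when scaled to ERCC reads, which moved the median of all genes to 1.06, so that Col11a1 lay at -0.36 relative to it. Col10a1, the cartilage collagen, had 0, 2 and 2 reads in KO libraries, against 16, 11 and 23 reads in control libraries. It was scarcely detected in either group. The 4 KO reads against 50 control reads gave a ratio of 0.0712 (95% interval 0.0187 to 0.194, counting error only).

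The number of called neocortex members was 0 without D5130 or D5133, 1 without D5132, 2 without D5129, 3 without D5134 and 5 without D5135. The 5 without D5135 included Col1a1 at 0.829 and Col8a2 at 1.185 (edgeR adjusted p = 0.007 and 0.0283), which were not called with all libraries. Sparc, Ltbp2 and Col6a5 lost their calls there. Sparc, Col16a1, Col6a5, Ltbp2 and Col11a1 each passed in 1 of the 6 fits without a library, and Col10a1 in 3. The fitted log2 value of each of these members kept its sign. Sparc was at 0.22 to 0.29, Col16a1 at 0.29 to 0.36, Col6a5 at 0.50 to 0.65, Ltbp2 at 1.00 to 1.31 and Col11a1 at -0.37 to -0.30. Within the spike-in set of D5129, D5130 and D5132 the log2 values were 0.22 for Sparc, 0.31 for Col16a1, 0.80 for Ltbp2, 0.40 for Col6a5 and -0.36 for Col11a1. Within the other set they were 0.34, 0.40, 1.43, 0.61 and -0.28 in the same order, and no member passed in either set of 3 libraries.

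Among fibrillar collagens of the neocortex, 1 of 11 fell and none rose, against 1.2% and 1.51% of all genes tested. The type I chains overlapped between the genotypes. Col1a2 stood at 23.7, 14.6 and 19.8 CPM in KO libraries, against 11.9, 13.8 and 27.1 CPM in control libraries, with the control D5135 highest, at 0.14 (edgeR, SE 0.40, adjusted p = 0.911). Col5a1, the most abundant fibrillar chain per kilobase there, stood at 38.7, 29 and 33.5 CPM in KO libraries, against 44.2, 37.6 and 37.4 CPM in control libraries, which overlap, at -0.23 (edgeR, SE 0.11, adjusted p = 0.272). Without D5135 the fibrillar count was 2, 1 higher and 1 lower, and without any other library it was 0. D5135 was the highest library for 25 of 65 members, and its fibroblast markers summed to 232 CPM, against 154 CPM in each of the other controls and 161 to 200 CPM in KO libraries.

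None of 20 basement membrane genes passed in the neocortex by edgeR or DESeq2, and 2 had an unadjusted p below 0.05. Their median log2 fold change was 0.07. Lamb2 stood at 33.3, 31.7 and 32.3 CPM in KO libraries, against 31.7, 32.2 and 34.7 CPM in control libraries. The values overlapped, at -0.02 (edgeR, SE 0.066, adjusted p = 0.93). Col4a1 at -0.21 (SE 0.10), Col4a2 at 0.06 (SE 0.060) and Lamc1 at 0.18 (SE 0.093) did not pass either, with adjusted p-values of 0.336, 0.648 and 0.356 by edgeR. Of the neocortex members that did not pass, Col4a6 had the highest value, 0.43 (edgeR, SE 0.24, adjusted p = 0.379), and the lowest was -0.44 (edgeR, SE 0.25, adjusted p = 0.395) for Col9a1.

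Among the remaining neocortex members, Fn1 at -0.07 (edgeR, SE 0.20, adjusted p = 0.909) and Eln at 0.16 (edgeR, SE 0.19, adjusted p = 0.733) did not pass. Col6a1 stood at 73.6, 69.1 and 80.5 CPM in KO libraries, against 90.3, 84.3 and 96.3 CPM in control libraries. Its groups did not overlap, and its log2 fold change of -0.28 (SE 0.069) lay just short of the threshold, with an edgeR adjusted p of 0.0538. Among the 12 network, beaded-filament and anchoring collagens, DESeq2 called 1 lower in the neocortex. That call was not Col10a1, for which DESeq2 gave no adjusted p. With no filter edgeR called 2 of the 12 lower, and also 2 without D5134. Col25a1 stood at 27.5, 30.6 and 25.4 CPM in KO libraries, against 36.8, 30.8 and 33.0 CPM in control libraries, at -0.27 (edgeR, SE 0.088, adjusted p = 0.126). In these libraries no fibroblast marker rose and 1 of 14, Igfbp6, fell, while 8 of 10 activated microglia markers rose. Of 8 excitatory neuron markers 2 fell, 6 had an unadjusted p below 0.05 and 2 had a positive value. Their sum was 5140 to 5240 CPM in KO libraries, against 5890 to 5980 CPM in control libraries. None of 5 oligodendrocyte precursor markers passed by edgeR, with sums of 139 to 149 CPM in KO libraries, against 151 to 169 CPM in control libraries. No endothelial, mural, choroid plexus or astrocyte marker passed there by edgeR, with 1, 0, 2 and 3 at an unadjusted p below 0.05. The astrocyte markers summed to 1780, 1950 and 2000 CPM in KO libraries, against 1720, 1590 and 1670 CPM in control libraries, without overlap, and Gfap stood at 0.99 (edgeR, SE 0.18, adjusted p = 0.062). The endothelial markers summed to 317 to 327 CPM in KO libraries, against 317 to 383 CPM in control libraries, and the pericyte and smooth muscle markers to 244 to 272 CPM against 238 to 255 CPM. The part of these cell types in the neocortex values, such as that of Sparc, was not tested.

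Whether the KO effect differed between the tissues was tested as an interaction over all 11 libraries, in which 0.0935% of 19256 genes passed. Lamb2 was the only member to pass, with a KO effect larger by 0.56 on the log2 scale in the CA1 than in the neocortex (edgeR, SE 0.096, adjusted p = 0.0313). It passed without D5134 of either tissue and did not pass without any other single library, at 0.50 to 0.57 with adjusted p-values of 0.0676 to 0.14 by edgeR. With the animal as a block 2 members passed, Lamb2 at 0.57 (edgeR adjusted p = 0.04) and Col1a2 at 1.30 (edgeR adjusted p = 0.00563). The members next to Lamb2 by p did not pass. Ltbp4 differed by 0.43 (SE 0.092), Col27a1, a fibrillar chain of cartilage, by 0.77 (SE 0.18), the laminin chain Lamc3 by 0.75 (SE 0.20) and Lama1 by 0.86 (SE 0.25), with adjusted p-values of 0.0959, 0.149, 0.202 and 0.239 by edgeR. Col6a5 differed by -0.86 (edgeR, SE 0.24, adjusted p = 0.212). By DESeq2, Lamb2, Ltbp4, Col27a1 and Col6a5 passed, and with no filter on low counts 6 members passed by edgeR, so which members differ between the tissues depends on the fit. The tissues differ in kit as well, and the effects of tissue and kit cannot be told apart.

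The members were last grouped by the strongest miR-29 match in the 3′ UTR. In the neocortex the median log2 fold change was 0.10 for 19 members with an 8mer, 0.09 for 13 with only a 7mer and 0.03 for 33 with no match. Over all tested protein-coding genes with a 3′ UTR the medians were 0.06, 0.04 and -0.01 in the same order. Of these genes 4.59%, 2.81% and 1.32% rose while 0.835%, 0.821% and 1.47% fell. The classes also differ in median 3′ UTR length, at 2676, 2329 and 974 bases for these genes. For the members the lengths were 1188, 1287 and 769 bases, and the part of length in these values was not tested. None of the neocortex members with an 8mer passed by edgeR, while Sparc and Col16a1, with only 7mers, rose, Col11a1, also with only 7mers, fell, and the other 3 calls were of members with no match. In the CA1 the member medians were 0.27 for 19 with an 8mer, 0.26 for 12 with 7mers only and 0.37 for 31 with none. Over the tested protein-coding genes with a 3′ UTR they were 0.02, 0.00 and -0.00. Of these genes 3.97%, 2.55% and 2.91% rose while 1.05%, 1.82% and 1.63% fell. Lamc1 and Eln, with an 8mer, rose. Sparc, Col16a1 and Col1a2, with only 7mers, rose and Col11a1 fell, and the other 7 rises were of members with no match. The differences between these classes were not tested.

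**Figure D4:**
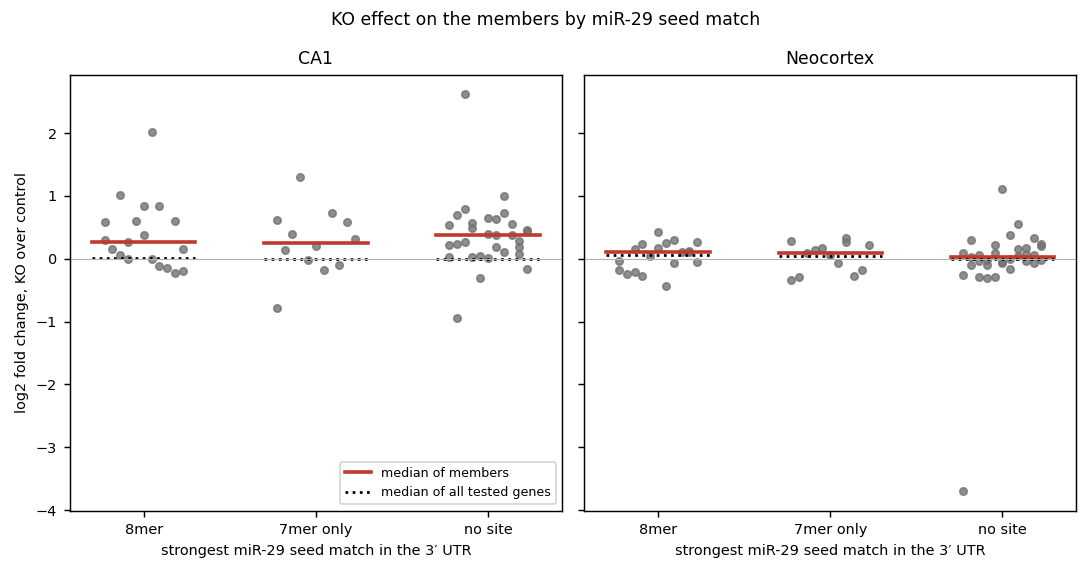
Log2 fold change of KO over control (vertical axis) for each tested member, by the strongest miR-29 match in its 3′ UTR, CA1 left and neocortex right. Red lines are medians of the members, at 0.27, 0.26 and 0.37 in the CA1 and at 0.10, 0.09 and 0.03 in the neocortex. Dotted lines are medians of all tested protein-coding genes with a 3′ UTR in the class.

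Genes that process, cut or bind the matrix were examined next to the members. Of 30 collagen and elastin processing genes tested in the CA1, 5 rose and none fell, against 2.47% and 1.41% of all genes tested. Pcolce, the enhancer of procollagen cleavage, averaged 9.64 ± 0.052 CPM in KO libraries (SD, n = 2) and 3.87 ± 0.60 CPM in control libraries (SD, n = 3), a rise of 1.31 (edgeR, SE 0.16, adjusted p = 0.000659). The procollagen proteases Adamts2 and Adamts14 rose by 0.58 (SE 0.12) and 0.98 (SE 0.23), with adjusted p-values of 0.0165 and 0.029 by edgeR. The elastic fibre protein Fbln5 rose by 0.70 (SE 0.16) and the prolyl hydroxylase subunit P4ha2 by 0.48 (SE 0.12), with adjusted p-values of 0.029 and 0.0384 by edgeR. Pcolce and Ogn are also among the fibroblast markers.

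Beside the 2.47% of all genes tested that rose in the CA1, the other lists gave these counts. Of 18 matrix proteases and inhibitors tested in the CA1, 1 rose, Timp3, a matrix-bound inhibitor of metalloproteases, by 0.50 (edgeR, SE 0.070, adjusted p = 0.00156). Of 20 matrix receptors, 3 rose, the integrin chains Itgb5 by 0.55 (SE 0.079) and Itgb1 by 0.48 (SE 0.088) and the laminin receptor Bcam by 0.54 (SE 0.14), with adjusted p-values of 0.00169, 0.0084 and 0.0384 by edgeR. Of 18 genes of TGF-beta signalling, 3 rose. The ligand Tgfb1 averaged 6.46 ± 0.74 CPM in KO libraries (SD, n = 2) and 3.64 ± 0.37 CPM in control libraries (SD, n = 3), a rise of 0.83 (edgeR, SE 0.17, adjusted p = 0.0151). Nrros, which presents latent TGF-beta on microglia, rose by 0.74 (SE 0.15) and the co-receptor Tgfbr3 by 0.38 (SE 0.096), with adjusted p-values of 0.0165 and 0.0411 by edgeR. Of 16 matrix proteoglycans 2 rose, Prelp by 0.56 (SE 0.090) and Ogn by 0.90 (SE 0.16), with adjusted p-values of 0.0035 and 0.00712 by edgeR.

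In the neocortex 29, 18, 20, 18 and 16 genes of these 5 lists were tested, in the order above. Of these 1 rose, Itgb1, and none fell, against 1.51% and 1.2% of all genes tested. Itgb1 averaged 72.7 ± 6.4 CPM in KO libraries and 55.1 ± 2.4 CPM in control libraries (SD, n = 3 each), a rise of 0.40 (edgeR, SE 0.070, adjusted p = 0.0129). The medians of the lists there lay between -0.01 and 0.10, and between 0.01 and 0.37 in the CA1.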

How the data were processed

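The deposited values are raw read counts per Ensembl gene from 6 neocortex and 5 CA1 libraries, made by the authors and not normalized. Per the labels' protocols, polyadenylated RNA was prepared with a stranded kit and ERCC spike-in RNAs for the neocortex and with an unstranded kit for the CA1. The tools GSNAP, bedtools, SAMtools and FastQC and the build GRCm38 are named, per the submitters' processing notes. For versions, counting rule, strand setting and annotation, nothing is given in the sources used here. Genes overlapping on opposite strands are uncertain in the CA1, as are reads shared by close relatives. The 92 ERCC entries were left out of library sizes.

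Symbols, 3′ UTRs and exon lengths came from GENCODE M21 by gene identifier, which matched 37693 of 39017 identifiers (96.6%). Within each tissue, KO was set against control by edgeR 4.0.16, run in R 4.3.3 (TMM scaling, filterByExpr, robust quasi-likelihood F-test, two-sided). Benjamini-Hochberg adjustment ran over all genes tested in a comparison, with a threshold of 0.05. A standard error (SE) is the absolute log2 fold change divided by the square root of F. DESeq2 1.42.0, other scalings, no filter, a spike-in set term and fits without each library were alternatives, and fits within each spike-in set were added after seeing the data. The procedure was tested on simulated data.

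The members and the gene lists were chosen with earlier results of these data known. The text names members past the threshold, the 3 most abundant of each role, the 6 of smallest interaction p and the most extreme that did not pass; other members named were picked afterwards. The values of 1 member are not reported here, and it stays in the counts. The labels give 4 animals for both tissues, so animal numbers pair the tissues. Deviations from group means correlated across genes with r of 0.144 to 0.211 within an animal, against -0.239 to 0.0563 between animals. Deviations within a group cancel out, which pulls the values between animals down. With 2 CA1 KO libraries they are mirror images, as 0.148 and -0.148 for D5130 of the neocortex. This contrast is therefore partly fixed in advance. Chi-square per gene between libraries of a group was 9.99 to 22.1, so none was a copy of another.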

Additional observations from a re-analysis of the deposited data

Results flagged for a closer look

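The KO effect on Lamb2, a laminin beta chain, differed between the tissues by 0.562 on the log2 scale (CA1 minus neocortex, SE 0.096, edgeR adjusted p = 0.0313), which is why it is listed here. Lamb2 stood at 40.4 and 42.1 CPM in CA1 KO libraries, against 27.5 to 28.9 CPM in CA1 control libraries, and at 31.7 to 33.3 CPM in neocortex KO libraries, against 31.7 to 34.7 CPM in neocortex control libraries. In the same CA1 libraries the pericyte and smooth muscle markers summed to 279 CPM in each KO library, against 197 to 218 CPM in control libraries, and the endothelial markers to 279 to 295 CPM against 251 to 306 CPM. Fibroblast markers summed to 213 to 267 CPM against 101 to 124 CPM. Astrocyte markers summed to 2440 to 2660 CPM against 1980 to 2050 CPM, and activated microglia markers to 138 to 161 CPM against 66.9 to 83.9 CPM. The sums of excitatory neuron and oligodendrocyte precursor markers were lower in KO libraries, and those of the choroid plexus overlapped. The part of these cell types in the difference was not tested.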

How the results depend on the processing

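In the neocortex the number of called members was 6, and it was 5 with DESeq2, 6 with RLE scaling and 7 with no filter. DESeq2 gave no adjusted p for Ltbp2 and Col10a1, so its 5 calls were not all among the 6. The number was 1 with a batch term for the spike-in sets, Col10a1, which passed the low-count filter through its controls only. It was 0 when scaled to ERCC reads or within either spike-in set alone, and without 1 replicate it ranged from 0 to 5. The 1 fibrillar call became 0 in each of those 4 spike-in settings and ranged from 0 to 2 without 1 replicate, and the basement membrane count stayed at 0. Scaling to ERCC reads moved the median of all genes to 1.06, with 4 genes called in all, and Col11a1 then stood at 0.70 (edgeR adjusted p = 0.376), or -0.36 relative to that median. In the CA1 the 13 calls became 15 with DESeq2, 13 with RLE and 19 with no filter, and 8 to 13 without 1 replicate. Basement membrane calls there ranged from 1 to 4 without 1 replicate. For the interaction, 1 member passed, against 2 with animal as a replicate block, 4 with DESeq2 and 6 with no filter, and 0 or 1 without 1 replicate. With 2 KO libraries in the CA1, a fit without either assumes that the other varies like the controls. Counting error is small for most members, but Col10a1, Ltbp2 and Col28a1 rest on few reads.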
